A study of Mus musculus with 6 samples.

Results

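Myosin light chains are the small subunits that wrap the lever arm of the myosin heavy chain. Each heavy chain carries an essential light chain, which stiffens the lever arm, and a regulatory light chain, whose phosphorylation tunes force. Atrial and ventricular muscle use different light chain genes, and fetal heart muscle carries both kinds before the chambers sharpen around birth, so these genes are a common readout of chamber identity. The 10 genes were taken from the deposited FPKM table (reads scaled by gene length and library depth, a level per length) by symbol. All 10 of 10 were found among 24421 genes, and all 10 reached 1 FPKM in at least 3 libraries, as did 12121 genes in all. They fall into the atrial Myl4 (essential) and Myl7 (regulatory), the ventricular Myl3 (essential) and Myl2 (regulatory), the fast skeletal Myl1 (essential) and Mylpf (regulatory), and the smooth muscle or nonmuscle Myl6 (essential), Myl9, Myl12a and Myl12b (regulatory).

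Poly(A) RNA was sequenced from hearts of C57/Bl6 mouse embryos at E18.5, near the end of gestation, in 3 libraries labelled wildtype and 3 labelled Gas2l3 -/-, and no other allele or agent is named. Gas2l3 encodes a linker of actin and microtubules, and the study asked what its deletion does to division of heart muscle cells. The labels do not say whether each library is 1 embryo, whether hearts were pooled, or which part of Gas2l3 was removed. The p-values therefore cover only the variation among these 6 libraries, which may be technical. Heart tissue was homogenised without separating chambers. Fewer cells of a type and less RNA per cell therefore cannot be told apart in any value below.

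The libraries held 3414257 to 7732674 recovered reads. Their deposited FPKM summed to between 429622 and 788996, with wildtype replicate 3 highest, and that library had the lowest mean correlation with the others (0.899, against 0.935 to 0.957). Its values rose with the GC content of genes (r = 0.702 across genes, which are not independent replicates). Those of wildtype replicate 1 and knockout replicate 1 fell with GC content (r = −0.474 and −0.481) and rose with log gene length (0.355 and 0.340). In wildtype replicate 2 and knockout replicate 2 values fell with log gene length (−0.313 and −0.417). Gas2l3 itself was at 10.3, 4.12 and 2.48 FPKM in wildtype replicates 1 to 3 and 4.03, 2.99 and 3.06 FPKM in the knockout replicates, so this value does not check the genotype and every direction below follows the labels. Heart muscle markers were present throughout: the summed level of 8 cardiomyocyte markers ran from 20287 to 31802 FPKM, and Tnnt2, cardiac troponin T, was at 5404 FPKM or more in each library. Of 18 skeletal muscle markers, 11 stayed under 1 FPKM in every library, among them the lineage regulators Myod1, Myog, Myf5 and Pax7.

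Of the light chain genes, Myl12a and Myl12b are the hardest to tell apart by reads, which is why the start of their coding sequences is shown beside that of Myl9. Bases 1 to 120 are printed 5′ to 3′, with capitals where a base differs from Myl12a.
Myl12a: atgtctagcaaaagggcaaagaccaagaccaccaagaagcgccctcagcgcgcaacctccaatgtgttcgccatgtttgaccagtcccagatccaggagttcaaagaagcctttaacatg
Myl12b: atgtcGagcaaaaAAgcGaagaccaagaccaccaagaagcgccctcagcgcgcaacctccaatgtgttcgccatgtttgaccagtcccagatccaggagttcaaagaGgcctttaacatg
Myl9: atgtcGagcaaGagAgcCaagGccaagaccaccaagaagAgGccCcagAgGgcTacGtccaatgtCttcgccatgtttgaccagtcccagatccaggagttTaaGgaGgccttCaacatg
Within these 120 bases Myl12b differs from Myl12a at 5 positions and Myl9 at 17. Over the whole coding sequence of 519 bases, Myl12a and Myl12b share 501 bases (96.5%), with a longest shared run of 105 bases, while Myl9 shares 86.3% with Myl12b. Both genes lie on the minus strand of chromosome 17 (GRCm38), Myl12a from 70993656 to 71002878 and Myl12b from 70974119 to 71002208, and their annotated spans overlap. How the reads of such copies were assigned is not given in the sources used here, so the separate values of Myl12a and Myl12b are uncertain. Myl9 shares 85.5% with Myl12a. The most similar pair outside these 3 genes, the essential chains Myl4 and Myl3, shares 78.1% of aligned coding bases and no run longer than 29.

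Promoter windows are shown for the sequence that the members of a class do or do not share. RefSeq windows (GRCm38.p6) of 250 bases before the RefSeq start were found for all 10 genes, 12 windows in all. That start is the 5′ end of the GENCODE span given with each gene below for Myl4 and Myl7 only. For Myl2 the 2 RefSeq starts lie 8227 and 7762 bases before the GENCODE start, so its windows do not describe the bases next to that start. For the other 7 genes the RefSeq starts lie inside the GENCODE span. They were searched on both strands for the CArG box, the site of serum response factor, for the MEF2 box, for M-CAT (CATTCC) and for the E-box (CANNTG). A CArG box stood in 4 of the 10 genes, the atrial Myl7, the ventricular Myl3 and the smooth muscle or nonmuscle Myl9 and Myl6, against 1.47% of 32851 windows of the same length. No MEF2 box stood in any of them, against 1.69% of windows. M-CAT stood in 3 of the 10 genes, Myl7, Myl3 and Myl1, against 12.6% of all windows, and the E-box in 7 of 10, against 66.2%. The members' counts are per gene, and Myl2 and Myl6 have 2 windows each. A window is printed for 1 gene of each class with a box, 5′ to 3′ on the gene's strand, with the CArG box in capitals.
Myl7, chr11:5898783-5899032, minus strand: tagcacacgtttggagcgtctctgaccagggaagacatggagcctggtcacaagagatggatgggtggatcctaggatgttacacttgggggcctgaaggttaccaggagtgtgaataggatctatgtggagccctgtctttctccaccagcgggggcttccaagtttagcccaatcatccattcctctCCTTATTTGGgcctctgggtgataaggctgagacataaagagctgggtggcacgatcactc
Myl3, chr9:110763428-110763677, plus strand: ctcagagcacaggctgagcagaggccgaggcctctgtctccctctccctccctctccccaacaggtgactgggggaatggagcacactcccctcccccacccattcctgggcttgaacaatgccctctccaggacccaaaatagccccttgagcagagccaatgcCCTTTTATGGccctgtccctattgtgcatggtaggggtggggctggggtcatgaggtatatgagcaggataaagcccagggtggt
Myl9, chr2:156775214-156775463, plus strand: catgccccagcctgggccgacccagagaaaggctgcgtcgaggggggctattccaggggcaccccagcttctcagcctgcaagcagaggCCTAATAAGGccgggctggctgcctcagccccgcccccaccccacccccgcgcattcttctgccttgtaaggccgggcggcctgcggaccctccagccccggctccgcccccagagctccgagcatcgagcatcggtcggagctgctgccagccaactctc
The box begins 61 bases before the RefSeq start in Myl7, 85 in Myl3 and 161 in Myl9. So the box is found in genes of 3 classes here rather than in those of 1 chamber, and a match in letters is a description of the sequence only.

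The ventricular light chains dominated the hearts of both groups. Together Myl2 and Myl3 made up 79.2% to 88.5% of the FPKM of the 10 genes, and the atrial pair 4.84% to 9.84%. The 10 genes summed to 20278, 29430.1 and 49345 FPKM in wildtype replicates 1 to 3 and 19412, 28148 and 23293 FPKM in the knockout replicates. These sums were 4.25% to 6.25% of each library's summed FPKM. The reads of the 10 genes were 1.60% to 3.07% of each library's recovered reads. By mean FPKM over the 6 libraries the order was Myl2, Myl3, Myl4, Myl9, Myl6, Myl7, Myl12a, Myl1, Myl12b and Mylpf.

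Not every step of that order was clear of the spread between libraries. Myl3 lay above Myl4, Myl9 above Myl6, Myl12a above Myl1 and Myl12b above Mylpf in 6 of 6 libraries. Myl2 lay above Myl3 in 5 of 6, the exception being wildtype replicate 3, and Myl4 above Myl9 in 5 of 6. Myl6 against Myl7 and Myl7 against Myl12a held in 4 of 6 libraries, and Myl1 against Myl12b in 3 of 6, so these neighbours were not ordered beyond their spread.

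**Figure D1:**
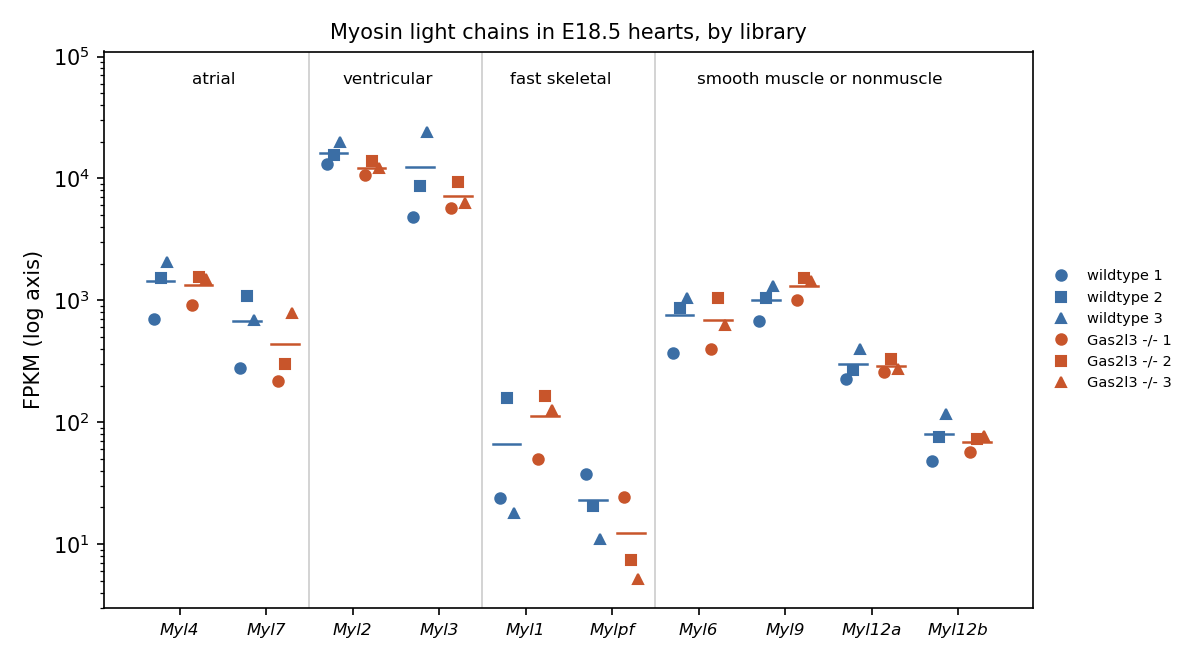
Level of each light chain gene in FPKM (log axis) in each library, grouped by class; blue symbols are wildtype, orange symbols Gas2l3 -/-, the symbol shape gives the replicate number and lines are group means. Myl2 and Myl3 stand highest, and the groups overlap for all 10 genes.

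No light chain differed between the genotypes by the test over all genes. Limma on log2(FPKM + 0.5), with Benjamini-Hochberg adjustment, called 0 of the 10 at an adjusted p under 0.05, and 0 of 12121 genes (0.0%). At an unadjusted p under 0.05 there were 0 of the 10 and 394 of 12121 (3.25%). With the replicate number as a block these were 2 of the 10, Mylpf and Myl1, and 6.01% of genes, and with GC and length trends removed as well 3 of the 10, those 2 and Myl9, and 10.7% of genes. The groups overlapped for each of the 10, while 9.76% of tested genes did not overlap, 5.02% with the knockout higher and 4.74% with it lower. Their median log2 fold change was −0.13, with 8 lower and 2 higher means, beside −0.0089 for all tested genes, of which 51.0% had lower and 49.0% higher means. With trends on GC content and length taken out of each library, 0 of the 10 and 1 gene in all (0.00825%) were called, and 1 of the 10, Myl9, had an unadjusted p under 0.05, as did 7.61% of tested genes. In the authors' deposited table, 9 of 12243 genes (0.0735%) passed an adjusted p under 0.05, none of them a light chain, and each of the 10 stood at an adjusted p of 0.998.

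The atrial chains come first. Myl7 (chromosome 11, 5896637 to 5898782, minus strand), the atrial regulatory chain and an early marker of heart muscle, stood at 278, 1086 and 685 FPKM in wildtype replicates 1 to 3. In the knockout replicates it stood at 217, 302 and 785 FPKM. The high libraries were wildtype replicate 2 and knockout replicate 3, 1 from each group. The means were 683 ± 404 and 435 ± 306 FPKM (SD, n = 3), a log2 fold change of −0.67 (SE 0.63, limma adjusted p = 0.966). That value ran from −1.21 without wildtype replicate 1 to −0.23 without wildtype replicate 2.

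Myl4 (chromosome 11, 104550663 to 104595753, plus strand), the essential chain of the atria that the fetal ventricle also makes, moved less. It was at 703, 1531 and 2058 FPKM in the wildtype replicates and at 917, 1553 and 1508 FPKM in the knockout replicates. In both groups replicate 1 was lowest. The log2 fold change was −0.014 (SE 0.52), and it turned to 0.32 without wildtype replicate 3. Its gene overlaps an antisense transcript and pseudogenes on the other strand, and whether counting used strand is not given in the sources used here.

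Myl2 (chromosome 5, 122100951 to 122113472, plus strand), the ventricular regulatory chain, was the steadiest of the chamber genes. Its levels were 13049, 15718 and 19789.7 FPKM in the wildtype replicates and 10732, 13837 and 12154 FPKM in the knockout replicates. Its highest library held 1.84 times its lowest, against 5.004 times for Myl7 and 4.92 times for Myl3. The knockout library was lower at each of the 3 replicate numbers, as it was for 13.8% of tested genes. The log2 fold change of −0.39 (SE 0.59, limma adjusted p = 0.966) turned to 0.11 under quantile normalization.

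Myl3 (chromosome 9, 110741861 to 110769798, plus strand), the ventricular essential chain, rested on 1 library. It stood at 4857, 8673 and 23894 FPKM in the wildtype replicates and at 5741, 9326 and 6292 FPKM in the knockout replicates. Wildtype replicate 3 was far above the other 5, which lay between 4857 and 9326 FPKM. It also stood highest after trends on GC content and length were removed, at 14.21 on the log2 scale against 12.69 to 12.88 in the other 5. The log2 fold change was −0.53 (SE 0.71) with that library and 0.10 without it. Myl3 overlaps Pth1r, a hormone receptor gene, on the other strand.

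Ratios within a library do not depend on how libraries were scaled against each other, but they can carry trends on GC content and length. The regulatory pair, Myl7 to Myl2, measures atrial against ventricular message in chains of the same kind. It was 0.0213, 0.0691 and 0.0346 in wildtype replicates 1 to 3 and 0.0202, 0.0219 and 0.0646 in the knockout replicates. Wildtype replicate 2 and knockout replicate 3 stood apart at about the same ratio, and the groups overlapped across nearly their whole range. The difference of the log2 means was −0.28 (SE 0.73, exact permutation test, two-sided, p = 0.6, 0.8 adjusted over the 4 ratios). It turned to 0.17 without wildtype replicate 2 and to 0.018 without knockout replicate 1.

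The essential pair, Myl4 to Myl3, did not follow the regulatory pair in wildtype replicate 3. Its ratio was 0.145, 0.177 and 0.0861 in the wildtype replicates and 0.160, 0.167 and 0.240 in the knockout replicates. Wildtype replicate 3 was lowest and knockout replicate 3 highest, and the other 4 lay between 0.145 and 0.177. The log2 difference was 0.51 (SE 0.36, exact permutation p = 0.3, adjusted p = 0.6), and 0.21 without wildtype replicate 3. As a sum, Myl4 plus Myl7 was 5.48%, 10.7% and 6.28% of Myl2 plus Myl3 in the wildtype replicates and 6.89%, 8.01% and 12.4% in the knockout replicates, 7.496% ± 2.83 against 9.11% ± 2.93 (SD, n = 3).

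Within each chamber pair the regulatory and essential chains did not keep a fixed proportion. Myl7 to Myl4 was 0.396, 0.710 and 0.333 in the wildtype replicates and 0.237, 0.195 and 0.521 in the knockout replicates, a log2 difference of −0.65 (SE 0.55, exact permutation p = 0.3, adjusted p = 0.6). Myl2 to Myl3 was 2.69, 1.81 and 0.828 in the wildtype replicates and 1.87, 1.48 and 1.93 in the knockout replicates, a log2 difference of 0.14 (SE 0.51, exact permutation p = 0.8, adjusted p = 0.8). The knockout libraries were the closer together for this last ratio, with an SD of 0.21 against 0.86 on the log2 scale. It turned to −0.33 without wildtype replicate 3. With 3 against 3 the smallest p this test can give is 0.1, so none of the 4 ratios could reach 0.05. Removing GC and length trends gave log2 differences of −0.065 for Myl7 to Myl2 and 0.52 for Myl4 to Myl3. Those for Myl7 to Myl4 and Myl2 to Myl3 were then −0.44 and 0.14.

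**Figure D2:**
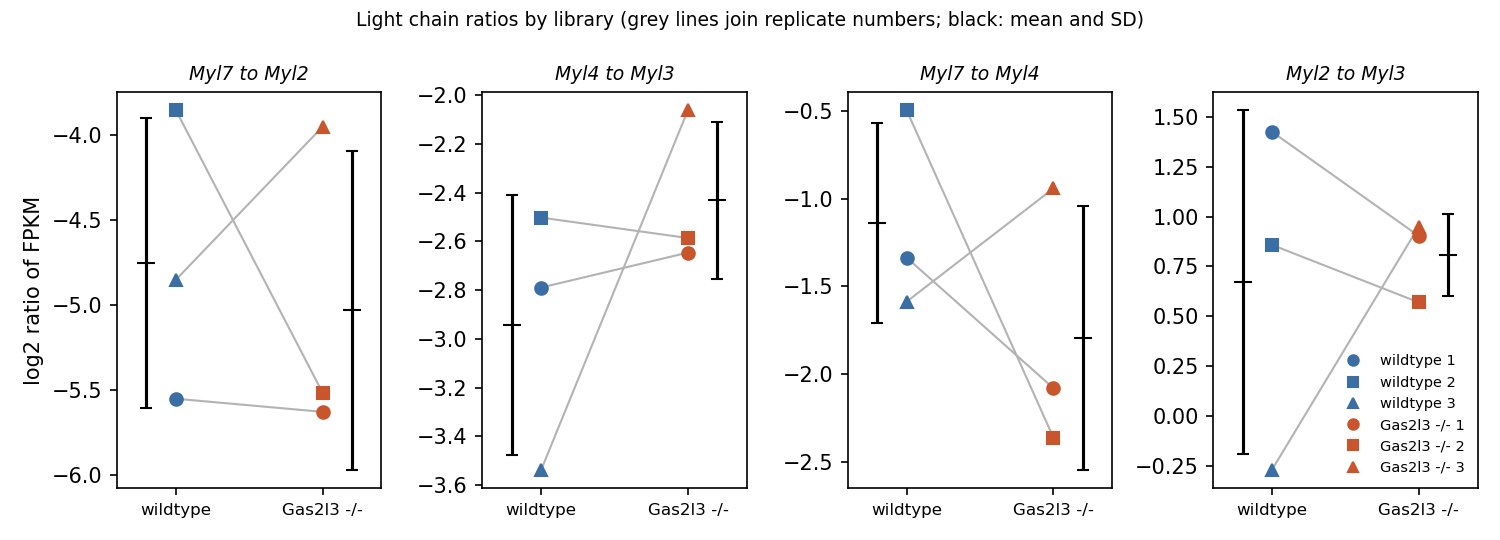
Log2 ratio of FPKM in each library for 4 pairs of light chains; symbols give the replicate number, grey lines join libraries of the same number and black bars are the group mean and SD (n = 3). The groups overlap in every panel, and Myl7 to Myl2 is highest in wildtype replicate 2 and knockout replicate 3.

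The atrial light chains were set beside 16 other atrial genes, which took no common course over the libraries. Sln, sarcolipin, the small inhibitor of the atrial calcium pump, followed Myl7: it was at 13.9, 321.5 and 67.9 FPKM in wildtype replicates 1 to 3 and at 2.38, 26.1 and 150.4 FPKM in the knockout replicates. From the highest to the lowest, the 6 libraries took the same order for Sln as for Myl7. Only 5 of 12120 other tested genes (0.0413%) shared that order, namely Sln, Ahsa1, Ppl, Fkbpl and Gle1. Mybphl, an atrial myosin-binding protein, was at 0.839, 15.6 and 5.55 FPKM in the wildtype replicates and 0.852, 4.38 and 15.4 FPKM in the knockout replicates, with the same 4 libraries on top in the same order. Sln and Mybphl were set beside Myl7 after their values had been seen, so this likeness is a description.

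Nppa, which encodes atrial natriuretic peptide, and Bmp10, a growth factor of atrial and trabecular muscle, did not follow Myl7. Nppa was at 1031, 2273 and 2408 FPKM in the wildtype replicates and at 6523, 4581 and 6005 FPKM in the knockout replicates, without overlap. Bmp10 was at 25.5, 13.3 and 9.82 FPKM and at 71.0, 19.0 and 60.1 FPKM, higher in the knockout library at each replicate number but with overlapping groups. Their log2 fold changes were 1.66 (SE 0.52) and 1.51 (SE 0.53), each with a limma adjusted p of 0.966. Knockout replicate 1 held the highest Nppa and Bmp10 and the lowest Myl7 and Sln of the 6 libraries. Atrial genes as a whole had 8 higher and 8 lower means and a median log2 fold change of 0.031. Of that list only Sln shared the library order of Myl7. Gja5 and Kcnj5, at 31.0 and 25.9 FPKM, were highest in wildtype replicate 1, and Kcna5, at 16.5 FPKM, in wildtype replicate 3.

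Other genes of the atrial list named by the smallest p were Stard10, a lipid transfer protein, at 41.5 ± 22.4 against 21.5 ± 3.24 FPKM, and Tbx5, a transcription factor of atria and left ventricle, at 11.8 ± 1.34 against 8.99 ± 1.77 FPKM. The groups did not overlap for Tbx5 (log2 fold change −0.39, SE 0.25, limma adjusted p = 0.966). Of 9 ventricular genes other than light chains, 3 had higher and 6 lower means, with a median of −0.27. Irx4, a ventricular transcription factor, was at 56.1 ± 22.4 against 33.6 ± 4.06 FPKM, and Irx5 at 7.21 ± 1.99 against 11.9 ± 1.61 FPKM, each without overlap and each with a limma adjusted p of 0.966. Hey2, a compact-wall repressor, had a log2 fold change of −0.54 (SE 0.32) and Hand1 of −0.70 (SE 0.40).

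**Figure D3:**
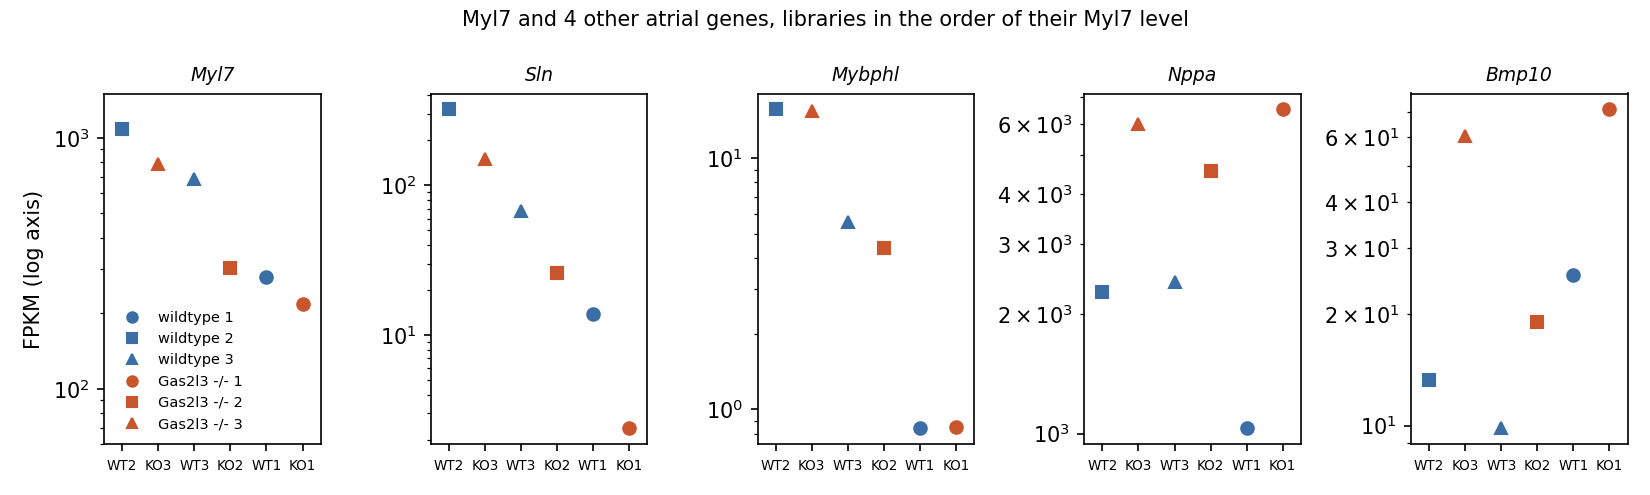
FPKM (log axes, each panel with its own range) of Myl7, Sln, Mybphl, Nppa and Bmp10; libraries are ordered by their Myl7 level, WT and KO with a number are wildtype and Gas2l3 -/- replicates. Sln and Mybphl descend with Myl7, while Nppa and Bmp10 do not.

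Leaving out wildtype replicate 2 and knockout replicate 3 together, a choice made after seeing the data, left 0 of the 10 light chains called. Under it Myl7 to Myl2 was −0.37, Myl4 to Myl3 was 0.55 and Myl7 to Myl4 was −0.76 on the log2 scale. These lie close to the values with all 6 libraries. The share of atrial tissue in the hearts was not measured separately, and its part in these ratios was not tested.

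The fast skeletal chains had the widest spread of the 10 and opposite directions. Myl1 (chromosome 1, 66924295 to 66945404, minus strand), the essential chain of fast muscle, was at 24.1, 157 and 18.1 FPKM in the wildtype replicates and at 49.8, 164 and 127 FPKM in the knockout replicates. Wildtype replicates 1 and 3 were low, and the other wildtype library lay inside the knockout range. Its log2 fold change came to 1.29 (SE 0.79, adjusted p = 0.966 by limma). It was 0.71 without wildtype replicate 3 and 2.25 without wildtype replicate 2. With the replicate number as a block the unadjusted p was 0.033 and the adjusted p 0.782 by limma. The knockout library was higher at each of the 3 replicate numbers, as it was for 16.6% of tested genes.

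Mylpf (chromosome 7, 127208890 to 127214298, plus strand), the phosphorylatable regulatory chain of fast muscle, was at 37.7, 20.7 and 10.9 FPKM in the wildtype replicates and at 24.3, 7.42 and 5.21 FPKM in the knockout replicates. Only 27 to 118 reads stood behind each value. Replicates 1 were the highest of each group, and the knockout library was lower at each of the 3 numbers. The log2 fold change was −1.01 (SE 0.60). With the replicate number as a block the SE fell to 0.25, the unadjusted p was 0.0047 and the limma adjusted p 0.632, so it stayed uncalled.

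Skeletal muscle markers did not move as 1 group with either chain. Of 18, 4 were tested, with 2 higher and 2 lower means and a median of −0.36. Tnnt3, fast troponin T, was at 1.45, 4.04 and 2.37 FPKM in the wildtype replicates and at 0.420, 0.839 and 1.44 FPKM in the knockout replicates, lower without overlap (log2 fold change −1.14, SE 0.41). Only 6, 34 and 16 reads stood behind the wildtype values and 3, 5 and 11 reads behind the knockout values. Tnni2, fast troponin I, was at 14.3 ± 5.77 against 8.67 ± 7.85 FPKM and Casq1, the calcium buffer of skeletal muscle, at 45.1 ± 17.7 against 54.2 ± 15.7 FPKM. Mybpc2, fast myosin-binding protein C, was at 3.79 ± 0.772 against 5.64 ± 0.570 FPKM, higher without overlap. The summed level of the tested and untested skeletal markers was 51.3 to 92.4 FPKM in wildtype and 47.0 to 91.3 FPKM in knockout libraries. Casq1 alone held 34.3 to 65.5 FPKM of it in wildtype and 36.4 to 66.1 FPKM in knockout libraries. Among markers at low levels, Tnnc2 and Pvalb were highest in wildtype replicate 2, each at 3.06 FPKM, on 16 and 21 reads. Elsewhere they were at 0.954 and 0.888 FPKM or less, also in knockout replicates 2 and 3, where Myl1 was high too. Tnni2, Casq1 and Mybpc2 were highest in other libraries. Whether a trace of body wall muscle entered any library was not tested.

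The smooth muscle and nonmuscle chains make up the regulatory machinery of stress fibres, vessel walls and the contractile ring. Myl9 (chromosome 2, 156775420 to 156781658, plus strand), the regulatory chain of smooth muscle, was at 683, 1038 and 1322 FPKM in the wildtype replicates and at 1013, 1512 and 1442 FPKM in the knockout replicates. Wildtype replicates 2 and 3 lay above knockout replicate 1, so the groups overlapped. The log2 fold change came to 0.41 (SE 0.43, adjusted p = 0.966 by limma), or 0.15 without wildtype replicate 1 and 0.63 without wildtype replicate 3. Once the GC and length trends had been taken out it was 0.66 (SE 0.23, unadjusted p = 0.0187, limma adjusted p = 0.569) and the groups no longer overlapped; in that setting 6.55% of tested genes were higher without overlap.

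Relative to the ventricular chains in the same library, Myl9 separated the groups, while its ratios to Myl4, Myl7, Myl1, Mylpf and Myl6 overlapped. Its share of the FPKM of the 10 light chains was 3.37%, 3.53% and 2.68% in the wildtype replicates and 5.22%, 5.37% and 6.19% in the knockout replicates. Set against Myl2 alone it was 5.23%, 6.60% and 6.68% in the wildtype replicates and 9.44%, 10.9% and 11.9% in the knockout replicates, a log2 difference of 0.80. This ranged from 0.69 to 0.89 with each library left out in turn and was 0.98 with the trends removed. Of all tested genes, 16.3% stood higher without overlap when divided by Myl2, and 8.54% when divided by the sum of the light chains. The shares of Myl12a (0.950% ± 0.155 against 1.23% ± 0.0909, SD, n = 3) and Myl12b (0.244% ± 0.0106 against 0.295% ± 0.0352) were higher without overlap as well, by smaller factors, while that of Myl6 overlapped. The 4 smooth muscle or nonmuscle chains together took 6.56%, 7.63% and 5.86% in the wildtype replicates and 8.91%, 10.5% and 10.4% in the knockout replicates. The share of Myl9 was singled out after its values were seen and has no test.

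Of the 45 pairwise ratios among the 10 genes, 6 had groups that did not overlap, and 4 of these held Myl9. Among all pairs of tested genes that were above 0 in every library, 10.1% did not overlap, so the 6 are near the background and are given as a description. Myl9 was higher relative to Myl2, Myl3, Myl12a and Myl12b, and the other 2 were Myl7 to Myl1 and Myl2 to Myl12a, both lower in the knockout libraries. Myl9 to Myl12b, a comparison between regulatory chains of the smooth muscle or nonmuscle class, was 14.1, 13.7 and 11.2 in the wildtype replicates and 17.6, 20.6 and 18.7 in the knockout replicates.

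**Figure D4:**
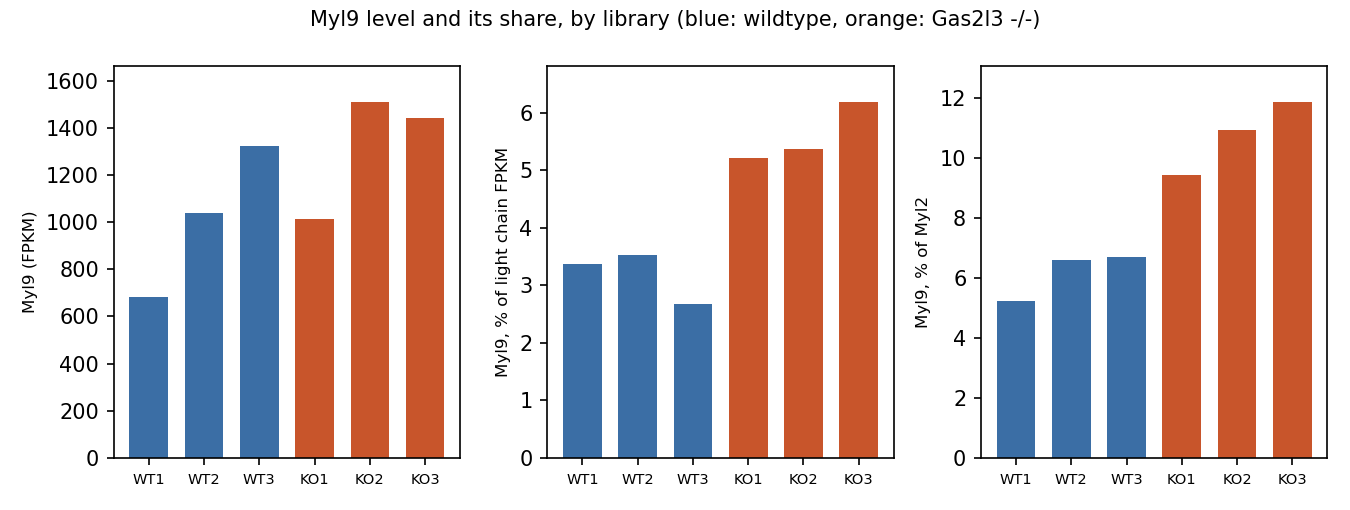
Myl9 in each library as FPKM, as a percentage of the summed FPKM of the 10 light chains and as a percentage of Myl2; bars are single libraries, WT wildtype and KO Gas2l3 -/-. The FPKM overlap between the groups, whereas both shares are higher in the 3 knockout libraries.

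The other nonmuscle chains had small differences of means in FPKM. Myl6 (chromosome 10, 128490860 to 128494145, minus strand), the essential chain of smooth and nonmuscle myosin, was at 371, 861 and 1048 FPKM in the wildtype replicates and at 400.1, 1042 and 627 FPKM in the knockout replicates. Replicates 1 were the low libraries of both groups (log2 fold change −0.12, SE 0.53). Myl12a was at 227, 270.5 and 401 FPKM against 259.8, 332 and 276 FPKM, and Myl12b at 48.3, 75.5 and 118 FPKM against 57.4, 73.2 and 77.0 FPKM. Their log2 fold changes of −0.017 (SE 0.35) and −0.14 (SE 0.37) turned to 0.21 and 0.18 without wildtype replicate 3. Myl12a also overlaps Myom1, a gene of the sarcomere M-band, on the other strand. Beyond the 10, Myl6b was at 4.99 ± 3.07 against 3.01 ± 0.947 FPKM, and Myl10 was listed at 0 in every library.

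Markers of smooth muscle and pericytes were read in FPKM, the scale on which Myl9 itself overlapped. Of 13, 12 were tested, with 7 higher and 5 lower means and a median of 0.10. Acta2, smooth muscle actin, was at 473 ± 166 against 397 ± 118 FPKM, and Tagln, transgelin, at 43.2 ± 12.03 against 57.8 ± 29.5 FPKM. Rgs5, a pericyte gene, was at 28.2 ± 15.9 against 38.9 ± 2.95 FPKM and Myocd, a coactivator of serum response factor, at 20.4 ± 4.07 against 15.4 ± 1.001 FPKM, lower without overlap. Smtn, smoothelin, had a log2 fold change of −0.26 (SE 0.29). Summed levels were 600 to 989 FPKM in wildtype and 566 to 879 FPKM in knockout libraries, so the whole list overlapped. Macrophage markers, of which 5 were tested, summed to 27.9 to 36.8 FPKM in wildtype and 47.4 to 86.3 FPKM in knockout libraries. That gap rested on Lyz2, lysozyme, at 17.4, 24.3 and 9.47 FPKM in the wildtype replicates and 32.1, 72.2 and 35.8 FPKM in the knockout replicates. Without it the list summed to 11.5 to 18.4 FPKM in wildtype and 14.1 to 17.5 FPKM in knockout libraries and overlapped. Fibroblast markers summed to 642 to 1357 FPKM in wildtype and 909 to 1120 FPKM in knockout libraries, and endothelial markers to 202 to 427 and 326 to 383 FPKM. Of 6 fibroblast markers, 5 had higher and 1 lower means, with a median log2 fold change of 0.35. Of 6 endothelial markers, 4 had higher and 2 lower means, with a median of 0.081. In each of these lists 1 gene was higher without overlap and 0 were called. Erythroid markers summed to 28.0 to 49.5 FPKM in wildtype and 29.0 to 122.6 FPKM in knockout libraries, and markers of lung, liver and thymus to 0.809 to 11.3 and 0.479 to 13.2 FPKM. The part of other cell types in the Myl9 share was not tested.

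**Figure D5:**
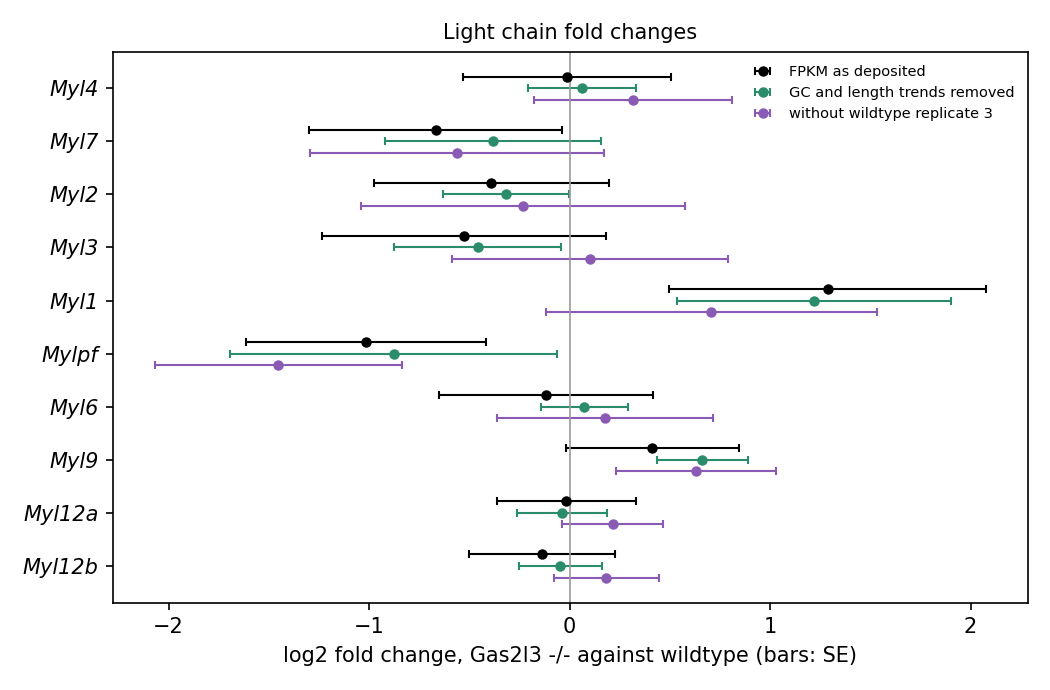
Log2 fold change of each light chain, Gas2l3 -/- against wildtype, with SE, from the deposited FPKM (black), after removal of GC and length trends (green) and without wildtype replicate 3 (purple). Myl3, Myl4, Myl6, Myl12a and Myl12b turn direction without that library, and Myl9 and Myl1 stay higher in all 3.

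Light chains work on heavy chains and under kinases and a phosphatase, and these partners were read from the same fit. Of 13 myosin heavy chain genes, 6 were tested, with 1 higher and 5 lower means and a median of −0.33. Myh6, the fast cardiac heavy chain, was at 767 ± 290 against 464 ± 117 FPKM, and Myh7, the slow one that prevails in the fetal ventricle, at 1594 ± 653 against 1069 ± 391 FPKM. Both were lower in the knockout library at each of the 3 replicate numbers and neither was called (log2 fold changes −0.68, SE 0.43, and −0.54, SE 0.52). Myh10, a nonmuscle heavy chain, was at −0.11 (SE 0.34) and Myh11, that of smooth muscle, at 1.55 ± 1.04 against 0.955 ± 1.04 FPKM.

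Of 17 kinase and phosphatase genes, 16 were tested, with 7 higher and 9 lower means and a median of −0.045. Mylk4, a kinase of the myosin light chain kinase family, was at 1.84, 0.745 and 1.25 FPKM in the wildtype replicates and at 4.93, 3.58 and 4.66 FPKM in the knockout replicates. The groups lay well apart, at a log2 fold change of 1.496 (SE 0.31), and limma's adjusted p was 0.966. Mylk3, the cardiac light chain kinase that acts on Myl2, was at 95.2 ± 25.6 against 102.3 ± 16.4 FPKM. Dapk3, which phosphorylates regulatory light chains, had a log2 fold change of −0.46 (SE 0.39) and Ppp1r14b, a phosphatase inhibitor, of −0.58 (SE 0.51).

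Heart muscle markers as a list had 8 lower means of 8 tested and a median of −0.28, with 0 called. With GC and length trends removed 3 of the 8 were higher and the median was −0.12, and 2 were higher without wildtype replicate 3. Nkx2-5, a cardiac transcription factor, was at 107, 204 and 489 FPKM in the wildtype replicates and at 118, 157 and 102 FPKM in the knockout replicates. As with Myl3, wildtype replicate 3 was far above the other 5, but Nkx2-5 has a GC content of 67.1% and Myl3 one of 51.5%. The log2 fold change of Nkx2-5 was −0.83 (SE 0.53). It was −0.51 with GC and length trends removed and −0.26 without wildtype replicate 3. Actc1, cardiac actin, had a log2 fold change of −0.40 (SE 0.57), Actn2, the Z-disc actinin, of −0.42 (SE 0.38) and Ryr2, the calcium release channel, of −0.37 (SE 0.41).

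How the light chains varied over the 6 libraries was compared as centred profiles, with the root-mean-square (rms) difference of log2(FPKM + 0.5) as the measure of likeness. The closest members to each other were Myl12a and Myl12b (rms 0.19), Myl4 and Myl12b (0.20), Myl2 and Myl12a (0.20) and Myl4 and Myl6 (0.23). The closest of these pairs lies within 1 class and the other 3 cross classes, and neither chamber pair is among the 4. Myl4, Myl3 and Myl6 put the 6 libraries in the same order, with wildtype replicate 3 highest and wildtype replicate 1 lowest. For each of them, 353 of 12120 other tested genes (2.91%) had that order, the remaining members of this trio included. The median rms spread of the 10 genes was 0.57, against 0.37 for all tested genes.

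Among 8390 other genes with a mean of at least 5 FPKM, those most like Myl2 were Wdr4 (rms 0.048), Cherp, Zdhhc16 and Osgep, all within 0.057. Those most like Myl9 were Arhgdib (rms 0.078), Bace2, Rps6ka2 and Nsg1. Myl7 had no near match: Igfbp5 was closest at 0.55, followed by Cryl1, Cma1 and Snhg18. The genes nearest to Mylpf were Ppip5k2 (rms 0.41), Esco2, Bub1 and Kif11. These likenesses cover 6 libraries that share depth and composition trends.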

How the data were processed

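Embryonic heart RNA was poly(A)-selected and sequenced in 6 libraries, per the labels' protocols. The authors deposited FPKM per gene and library and a comparison table; FastQC, DESeq2 and the build mm10 (GRCm38) appear in the submitters' processing notes. For the aligner, counter, annotation and strand setting, nothing is stated in the labels or headers. The deposited table of comparisons holds log2 fold changes and p-values of the authors, in a quoted text column. Whole reads were recovered from both tables (94235 values, 100% whole within 0.01), and cover counting error only. From the values, FPKM were scaled by size factors.

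Limma 3.58.1 (R 4.3.3; eBayes with an intensity trend, two-sided) was fitted to log2(FPKM + 0.5) of 12121 genes with 1 FPKM or more in at least 3 libraries; fold changes on this scale understate those of low genes. Ratios used exact permutation tests (SciPy 1.17.1). GC and length trends were removed by loess (span 0.3; GC known for 96.6% of tested genes). Replicate numbers pair the libraries by the data, not the labels (correlations of deviations 0.472, 0.443 and 0.186). With GC and length trends removed these fell to 0.278, 0.381 and 0.118, so part of the pairing is shared with those trends. Scripts were tested on simulated data. Alternatives were other pseudocounts, filters, scalings, thresholds, voom on recovered reads, the replicate block and leaving out libraries. Members and gene lists were chosen with earlier results of these data known. Named genes were the 10 light chains, Myl6b, Myl10, up to 4 genes per list with the smallest p and the 4 nearest profiles to Myl2, Myl7, Mylpf and Myl9. Lists of other cell types are given as sums, with Lyz2 beside its list, and 1 gene that the rule names is not reported here. Sln, Mybphl, Tnnt2, Acta2, Tagln, Mylk3, the genes sharing the library order of Myl7 and the Myl9 ratios were chosen after their values were seen. Gja5, Kcnj5, Kcna5, Tnnc2, Pvalb and Ptprc were added in the same way.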

Additional observations from a re-analysis of the deposited data

How the results depend on the processing

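None of the 10 light chains was called by limma under any of 17 alternatives on the gene fits or at an adjusted p under 0.1, including the replicate block, which changed no call. With GC and length trends removed, 1 gene of 12121 was called (0.00825%), Ppp1r1b, named after its value was seen; with the replicate block beside that removal it was 0. The lung, liver and thymus list was too small for a median where a mean of 5 FPKM was required. Among the 10 light chains depth limits Mylpf most, at 27 to 118 reads per library.

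Small fold changes turned direction. Myl4 turned to 0.060 with trends removed (0.060 with the block too), 0.17 with a common total (which moved the median of all tested genes from −0.0089 to 0.15), 0.27 under quantile normalization and 0.011 by voom. Myl6 turned to 0.073 (0.073 with the block), 0.060 and 0.079 in the first 3 of these and to 0.049 without wildtype replicate 2 and knockout replicate 3 together. With a common total and quantile normalization, Myl12a was at 0.16 and 0.14 and Myl12b at 0.043 and 0.024. Myl2 was at 0.11 under quantile normalization, Myh10 at 0.063 with a common total and Smtn at 0.028 with trends removed (0.028 with the block). With each library left out in turn, fold changes ran from −0.46 to 0.32 for Myl4, −1.05 to 0.10 for Myl3, −0.57 to 0.22 for Myl6, −0.20 to 0.21 for Myl12a and −0.46 to 0.18 for Myl12b, −0.64 to 0.025 for Snhg18 and −0.54 to 0.14 for Myh10 (the lower end without wildtype replicate 2 and knockout replicate 3 together). The log2 ratio of Myl7 to Myl2 ran from −0.82 to 0.17 and that of Myl2 to Myl3 from −0.33 to 0.51.

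With the replicate numbers as pairs, the 4 ratios gave exact sign-flip p-values of 0.75 for Myl7 to Myl2 (mean pair difference −0.28), 0.5 for Myl4 to Myl3 (0.51), 0.5 for Myl7 to Myl4 (−0.65) and 1.0 for Myl2 to Myl3 (0.14), where 3 pairs cannot go below 0.25.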
